A study of Mus musculus with 4 samples.

Results

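The 40 genes of mitosis and the spindle described here were chosen by name, for their roles in G2 and M phase, the spindle and the kinetochore, out of 47729 genes in a table of counts per gene from regulatory T (Treg) cells. All 40 were found by symbol, and all 40 were among the 12536 genes that passed the filter on low counts. RNA came from 4 libraries of splenic CD25+YFP+ CD4 T cells, sorted from female C57BL/6 mice. In the mice of the 2 WT libraries *Tfrc*, the gene of the transferrin receptor TfR1, was +/+ and *Foxp3* was YFP-Cre/+, and in those of the 2 other libraries *Tfrc* was fl/fl, a floxed allele that Cre can delete, with *Foxp3* again YFP-Cre/+. All 4 libraries thus share the Cre and YFP allele of *Foxp3*, heterozygous and X-linked, so that only cells with the Cre allele on the active X chromosome enter the sort and each animal keeps YFP- Treg cells without Cre. The mice were 6 to 8 weeks old, the age given for all mice of the study other than those with every Treg cell lacking TfR1. The libraries of a genotype are called biological replicates in a figure legend of the study. The number of animals behind each library is not given in the sources used here, and the p-values measure the spread between these libraries. The same legend gives lymph nodes as a source beside the spleen, which the labels name alone. Below, the libraries are called WT 1, WT 2, cKO 1 and cKO 2, where cKO stands for the label TfR1-deficient, and values of a gene in the 4 libraries are given in that order.

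Mitosis separates the duplicated chromosomes into daughter cells. Cyclin B with Cdk1 starts it, Aurora and Polo-like kinases build the spindle, kinetochores tie chromosomes to microtubules, the spindle checkpoint delays anaphase until they are attached, and cytokinesis closes the division. Transcripts of these genes are made mainly in G2 and M phase, from promoters that often hold a cell cycle genes homology region (CHR) and CCAAT boxes, and their level in a tissue is widely read as a sign of dividing cells. A part of the Treg cells of the spleen is in cycle, chiefly activated, effector-type cells.

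Total counts were between 10841939 and 17278448 per library. *Tfrc* was at 50.8, 54.1, 56.1 and 48.3 CPM, the count scaled to library size with TMM factors, so the WT and cKO libraries overlapped in the count of the targeted gene, which therefore does not check the labels from which every genotype named here is taken. *Foxp3*, the defining factor of Treg cells, was at 194, 130.3, 122 and 114 CPM. The summed level of 14 T cell and Treg markers was 12751, 14548, 13819.6 and 12336 CPM. Along the axis of greatest variance among the libraries (62.6%), WT 1 and cKO 2 lay on one side and WT 2 and cKO 1 on the other, and a list of 20 macrophage markers summed to 1219, 100.4, 73.4 and 3659.6 CPM.

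The genes of mitosis and the spindle were high in WT 1 and cKO 2 and low in WT 2 and cKO 1. Summed over the 40 genes, their level was 2368, 733, 755 and 2193 CPM. The sum was 3.23 times as high in WT 1 as in WT 2 and 2.903 times as high in cKO 2 as in cKO 1, whereas cKO 2 stood at 0.926 times the level of WT 1 and cKO 1 at 1.03 times that of WT 2. By genotype, the sum was 1550.2 ± 1156 CPM in the WT libraries and 1474 ± 1016 CPM in the cKO libraries (mean ± SD, n = 2 each), a difference smaller than either SD. In bulk RNA, fewer dividing cells and less of these transcripts per dividing cell cannot be told apart.

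Each of the 40 genes followed this order. All 40 were higher in WT 1 and in cKO 2 than in either of the other libraries, against 22.9% of all genes tested, and 36 of 40 (90.0%) were over 2-fold higher in WT 1 than in WT 2 and also in cKO 2 than in cKO 1, against 3.88% of all genes tested. The remaining genes were *Mad2l1*, *Cenpa*, *Ndc80* and *Ttk*. The median log2 ratio was 1.80 between the WT libraries and 1.60 between the cKO libraries, beside medians of 0.0043 and -0.03 over all genes tested. As folds, the ratios ran from 1.48 (*Mad2l1*) to 6.83 (*Bub1*) within WT and from 1.46 (*Mad2l1*) to 11.9 (*Ube2c*) within cKO, and the exact 95% counting interval of the ratio lay above 1 in both genotypes for 40 of 40 genes, against 15.6% of all genes tested. These intervals cover counting error only, and a pair of single libraries allows no test. The 40 genes were listed with earlier results of these data known, so their counts beside those of all genes are a description. Across the 40 genes the log2 ratios within WT and within cKO were related with Pearson's r = 0.68 and Spearman's rho = 0.68, a description over genes that were all read from the same 4 libraries.

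**Figure D1:**
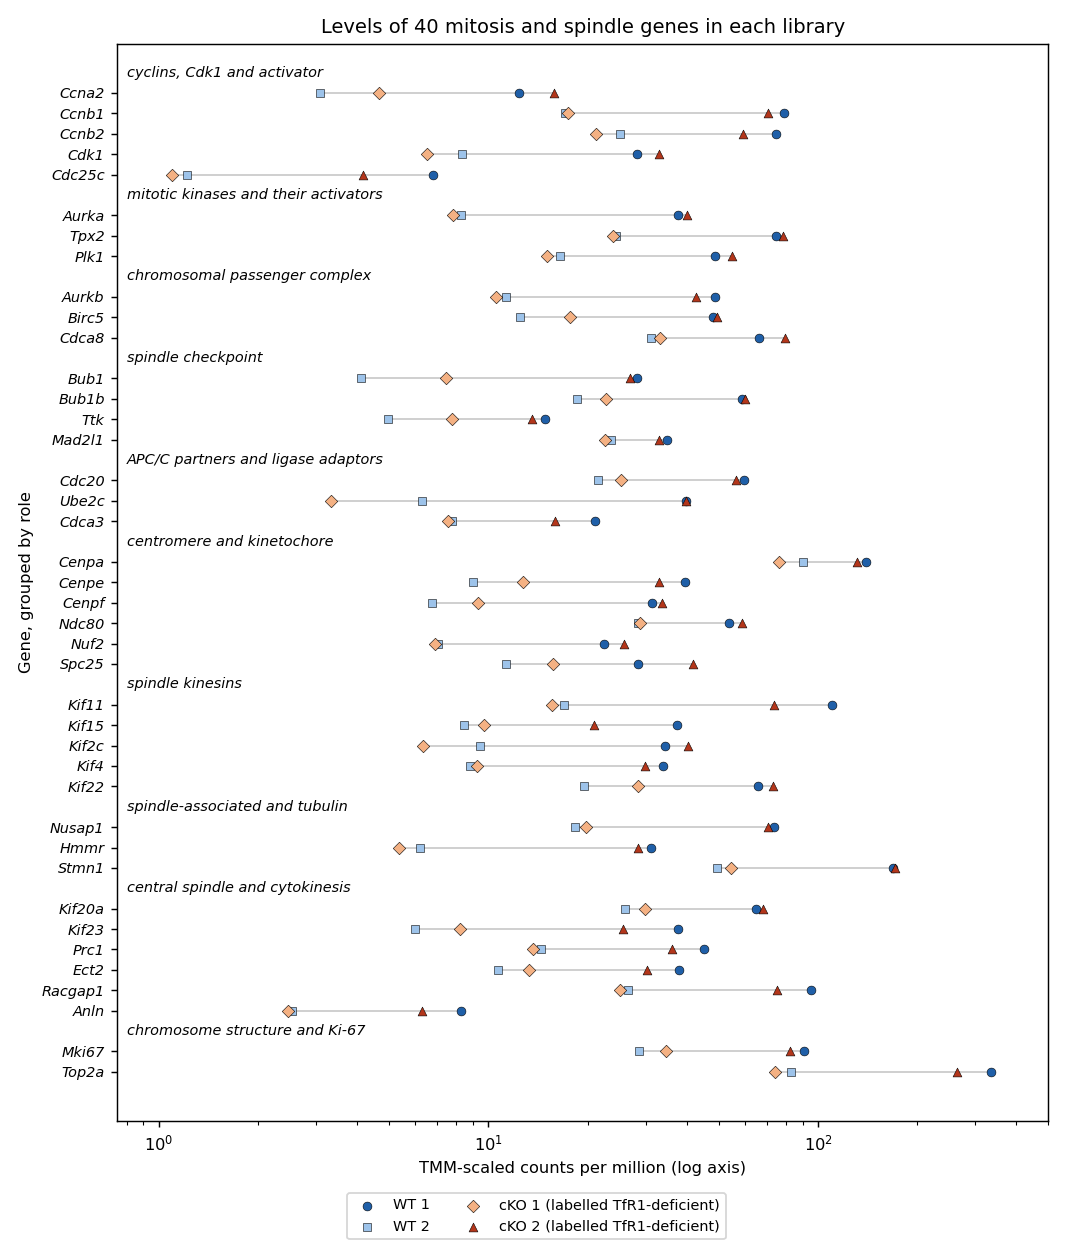
Level of each of the 40 genes in each library, in TMM-scaled CPM on a log axis, with genes grouped by role and 1 point per library. In every row the points of WT 1 and cKO 2 lie to the right of those of WT 2 and cKO 1, from *Mad2l1* with a 1.48-fold gap within WT to *Ube2c* with an 11.9-fold gap within cKO.

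Between the genotypes, single libraries of like level were close. The median log2 ratio of cKO 2 to WT 1 was -0.08, with a range of -0.83 (*Kif15*) to 0.55 (*Spc25*). For cKO 1 over WT 2 the median was 0.02, with a range of -0.88 (*Ube2c*) to 0.83 (*Bub1*). For 29 of 40 genes both ratios stayed within 0.5 of 0 on the log2 scale. The pairs were set side by side after the order of the libraries was known, so these values are a description.

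The promoters of genes that moved together this way were read from RefSeq windows of 250 bases before to 50 bases after the annotated start (GRCm38.p6). Windows were found for 34 of the 40 genes, 36 windows in all. The letters of the CHR element, TTTGAA on either strand, occurred in 29 of the 36 windows (80.6%), against 17.9% of 32851 windows of all promoters. A CCAAT box, the letters bound by NF-Y, occurred on either strand in 28 windows (77.8%), against 37.4% of all promoters, and 20 windows (55.6%) held at least 2, against 11.7%. The variant TTTAAA, which reads the same on both strands, occurred in 9 windows (25%), against 13.2%. The motifs searched can share an end base. A match is a description of letters and was not tested as a binding site. In the 100 bases before the start, shown here 5′ to 3′ on the gene's strand, the capitals mark these 3 motifs in either orientation. *Top2a*, *Kif11* and *Ube2c* are shown for differences between replicates above the median of the 40 genes in both genotypes. Not all genes with larger differences than *Top2a* are shown. *Cdk1*, *Ccnb1* and *Cdc20* are shown for the kinase, cyclin and APC/C activator of mitosis, and *Cenpa* and *Mad2l1* for the small differences.
Top2a, chr11:99024190-99024289, minus strand: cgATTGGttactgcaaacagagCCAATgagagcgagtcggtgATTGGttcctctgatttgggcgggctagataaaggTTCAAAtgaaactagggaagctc
Kif11, chr19:37376282-37376381, plus strand: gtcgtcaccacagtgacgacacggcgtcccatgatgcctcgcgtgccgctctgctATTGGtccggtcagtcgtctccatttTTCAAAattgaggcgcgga
Ube2c, chr2:164769829-164769928, plus strand: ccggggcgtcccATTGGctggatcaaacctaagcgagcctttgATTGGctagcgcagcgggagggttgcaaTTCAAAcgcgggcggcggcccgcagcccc
Cdk1, chr10:69352913-69353012, minus strand: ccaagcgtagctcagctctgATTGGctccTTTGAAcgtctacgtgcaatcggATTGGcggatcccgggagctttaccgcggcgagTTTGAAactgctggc
Ccnb1, chr13:100786487-100786586, minus strand: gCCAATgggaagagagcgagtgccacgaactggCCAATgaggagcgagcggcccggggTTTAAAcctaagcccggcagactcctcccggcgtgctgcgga
Cdc20, chr4:118437344-118437443, minus strand: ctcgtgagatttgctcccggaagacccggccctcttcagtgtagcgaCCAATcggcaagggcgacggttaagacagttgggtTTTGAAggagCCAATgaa
Cenpa, chr5:30666786-30666885, plus strand: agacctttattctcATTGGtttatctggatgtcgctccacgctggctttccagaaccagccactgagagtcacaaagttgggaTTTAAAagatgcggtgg
Mad2l1, chr6:66535121-66535220, plus strand: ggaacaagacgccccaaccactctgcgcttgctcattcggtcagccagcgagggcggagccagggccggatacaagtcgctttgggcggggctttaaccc

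These stretches of *Cdk1*, *Top2a*, *Ube2c*, *Cdc20* and *Kif11* pair CCAAT letters with a CHR element nearer the start, and *Cdc20* has a further CCAAT between its CHR element and the start. *Ccnb1* and *Cenpa* have the TTTAAA variant nearer the start than CCAAT, and *Mad2l1* has none of the letters searched in its whole window. Of genes not shown, *Bub1*, with the greatest ratio within WT (6.83-fold), has 2 CCAAT boxes and no CHR letters in its window. *Kif2c*, at 6.38-fold within cKO, has CHR letters and no CCAAT box. By distance from the start, the most frequent bins were the 25 bases just after the start for the CHR element and 75 to 50 bases before it for CCAAT. Having the CHR letters did not go with a larger difference between libraries. The 27 genes with TTTGAA had median log2 ratios of 1.74 within WT and 1.40 within cKO, and the 7 genes with a window but without it (*Birc5*, *Bub1*, *Ccnb1*, *Cenpe*, *Mad2l1*, *Nuf2* and *Nusap1*) had 1.999 and 1.82. Of these 7, *Birc5*, *Ccnb1* and *Cenpe* hold the TTTAAA variant, so the comparison covers the letters TTTGAA alone.

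**Figure D2:**
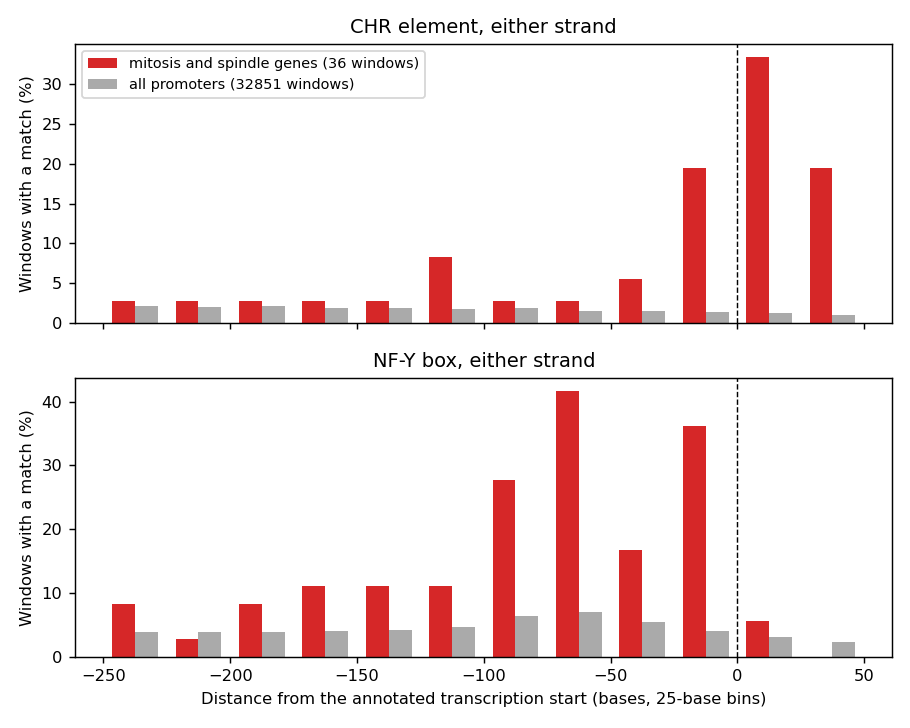
Share of promoter windows, in percent, with a CHR element (upper panel) or an NF-Y box (lower panel) starting in each 25-base bin, by distance in bases from the annotated start, for the 36 windows of the genes described (red) and all 32851 windows (grey). The red bars peak at 33.3% just after the start for the CHR element, against 1.31% of all windows, and at 41.7% from 75 bases before it for the NF-Y box, against 6.99%.

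The mitotic cyclins, Cdk1 and its activator summed to 201, 54.7, 50.8 and 182.7 CPM. *Ccnb1*, the cyclin B that drives entry into mitosis with Cdk1, was at 78.99, 17.1, 17.4 and 70.5 CPM, a ratio of 4.63-fold (3.95 to 5.46) within WT (WT 1 over WT 2) and 4.05-fold (3.55 to 4.62) within cKO (cKO 2 over cKO 1), where parentheses hold the 95% counting interval here and below. Its relative *Ccnb2* was at 74.7, 25.03, 21.1 and 59.4 CPM. The WT and cKO ranges of both cyclins overlapped, as they did for every gene of the list. *Ccna2*, cyclin A2 of S phase and early mitosis, was at 12.4, 3.09, 4.67 and 15.8 CPM. *Cdk1* itself was at 28.2, 8.34, 6.51 and 32.9 CPM. *Cdc25c*, the phosphatase that activates Cdk1, was the gene with fewest counts, 83, 13, 19 and 57, or 6.79, 1.22, 1.09 and 4.16 CPM. All 5 genes were over 2-fold higher in WT 1 and in cKO 2 than in the other library of the genotype, with the widest interval for *Cdc25c*, 5.58-fold (3.09 to 10.9) within WT. Exons of *Ccna2* share 512 bases with *Exosc9* on the opposite strand in GENCODE vM1, and the strand setting of the counting was not given in the sources used here, so reads from the shared bases cannot be told apart. *Exosc9* had 597, 568, 916 and 691 counts, without the order of *Ccna2*. A pseudogene of cyclin B2, *Ccnb2-ps*, was counted at 2, 2, 45 and 8 reads, highest where *Ccnb2* was lowest.

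Of the kinases that build the spindle, *Aurka*, the Aurora A kinase of the spindle poles, was at 37.7, 8.25, 7.84 and 40.01 CPM, 4.57-fold (3.63 to 5.81) within WT and 5.105-fold (4.22 to 6.21) within cKO. *Tpx2*, which activates Aurora A on spindle microtubules, was at 74.4, 24.4, 23.9 and 78.4 CPM. *Plk1*, the Polo-like kinase of centrosome maturation and mitotic entry, was at 48.7, 16.5, 15.1 and 54.97 CPM. In all 3 genes cKO 2 was slightly above WT 1 and cKO 1 slightly below WT 2. In the chromosomal passenger complex, which corrects faulty attachments, the Aurora B kinase *Aurkb* was at 48.8, 11.3, 10.5 and 42.7 CPM. *Birc5*, the survivin subunit, was at 48.1, 12.5, 17.6 and 49.6 CPM. *Cdca8*, the borealin subunit, was at 66.5, 31.1, 33.2 and 79.6 CPM. The 3 subunits kept the order of the libraries with unequal size, 4.301-fold (3.53 to 5.27) within WT for *Aurkb* and 2.14-fold (1.88 to 2.43) for *Cdca8*. *Cdca8* shares 232 exonic bases with a gene on the opposite strand, *9930104L06Rik*, which had 370, 336, 533 and 417 counts.

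Genes of the spindle checkpoint differed widely in the size of the gap. *Bub1*, a checkpoint kinase at the kinetochore, was at 28.2, 4.12, 7.43 and 26.9 CPM, 6.83-fold (4.98 to 9.57) within WT and 3.61-fold (2.95 to 4.45) within cKO. *Mad2l1*, the Mad2 protein that holds back the anaphase-promoting complex (APC/C), was at 34.9, 23.5, 22.5 and 32.9 CPM, 1.48-fold (1.27 to 1.74) and 1.46-fold (1.27 to 1.67). Of the 40 genes, *Mad2l1* had the smallest ratio in both genotypes and *Bub1* the greatest within WT. *Bub1b*, the BubR1 protein that inhibits Cdc20, was at 58.9, 18.6, 22.7 and 60.2 CPM. *Ttk*, the Mps1 kinase at the top of the checkpoint, was at 14.8, 4.97, 7.78 and 13.6 CPM, and its ratio within cKO was 1.75-fold (1.39 to 2.19). It was the gene under 2-fold within cKO but not within WT. Of the targets and partners of the checkpoint at the APC/C, the activator *Cdc20* was at 59.8, 21.5, 25.2 and 56.6 CPM. *Ube2c*, the ubiquitin-conjugating enzyme that works with the APC/C, was at 39.7, 6.28, 3.34 and 39.8 CPM, 6.32-fold (4.89 to 8.29) within WT and 11.9-fold (9.07 to 15.9) within cKO. *Ube2c* was at the same level in WT 1 and cKO 2 and differed between WT 2 and cKO 1, and its counting intervals within WT and within cKO did not overlap. *Cdca3*, an adaptor of the SCF ubiquitin ligase that targets Wee1, was at 21.1, 7.78, 7.55 and 15.99 CPM. *Cdc20* shares 53 exonic bases with *Elovl1* on the opposite strand, at 1452, 1267, 2202 and 1833 counts, and *Ube2c* shares 592 with *Tnnc2*, which had 0 counts in each library.

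Genes of the centromere and kinetochore summed to 315, 153, 149.8 and 324 CPM, 2.06 times as high in WT 1 as in WT 2 and 2.16 times as high in cKO 2 as in cKO 1. *Cenpa*, the histone H3 variant that marks the centromere, was at 139, 89.99, 76.3 and 131 CPM, 1.55-fold (1.43 to 1.68) within WT and 1.72-fold (1.604 to 1.85) within cKO. *Ndc80*, the microtubule-binding subunit of the outer kinetochore, was at 53.7, 28.5, 28.9 and 58.8 CPM, 1.88-fold (1.64 to 2.17) and 2.04-fold (1.82 to 2.28). Within WT these were, after *Mad2l1*, the genes with the smallest ratios of the 40, whereas within cKO *Ttk* had a smaller ratio than *Ndc80*. The partners of Ndc80 in the same complex differed more. *Nuf2* was at 22.5, 7.03, 6.92 and 25.8 CPM. *Spc25* was at 28.5, 11.3, 15.7 and 41.7 CPM, the gene with the highest ratio of cKO 2 to WT 1. *Cenpe*, the kinetochore kinesin that carries chromosomes to the spindle equator, was at 39.4, 8.999, 12.7 and 32.9 CPM, 4.38-fold (3.51 to 5.51) within WT and 2.59-fold (2.196 to 3.05) within cKO. *Cenpf*, a large coiled-coil protein of the kinetochore in G2 and M phase, was at 31.3, 6.75, 9.34 and 33.7 CPM. Both genes were lowest in WT 2, with cKO 1 above it.

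The 5 spindle kinesins had median log2 ratios of 1.92 within WT and 1.68 within cKO, and all 5 were over 2-fold higher in both genotypes. *Kif11*, the Eg5 motor that pushes spindle poles apart, was at 109.9, 16.97, 15.6 and 73.4 CPM, 6.48-fold (5.54 to 7.61) within WT and 4.72-fold (4.12 to 5.42) within cKO. *Kif15*, which backs up Eg5, was at 37.2, 8.44, 9.74 and 20.9 CPM, 4.41-fold (3.51 to 5.599) within WT and 2.14-fold (1.77 to 2.61) within cKO. Its level in cKO 2 was the furthest below WT 1 of the 40 genes on the log2 scale, and its 2 counting intervals did not overlap. Nor did those of *Bub1*, *Ube2c*, *Cenpe*, *Kif11*, *Kif2c*, *Kif22*, *Kif23*, *Ect2* and *Mki67*. These intervals cover counting error between single libraries only, and the share over all genes tested was not counted. A difference between the genotypes cannot be read from them. *Kif2c*, the MCAK depolymerase, was at 34.4, 9.47, 6.34 and 40.4 CPM, 3.63-fold (2.92 to 4.56) within WT and 6.38-fold (5.19 to 7.902) within cKO, the reverse of *Kif15* in which genotype had the wider gap. *Kif4*, the chromokinesin KIF4A, was at 33.8, 8.81, 9.22 and 29.8 CPM. *Kif22*, the chromokinesin Kid, was at 65.9, 19.5, 28.5 and 72.9 CPM. *Kif4* shares 832 exonic bases with *Pdzd11* on the opposite strand, at 375, 245, 394 and 364 counts. Scaled to library size, *Pdzd11* has the order of *Kif4* with smaller gaps. The listed pseudogenes *Kif4-ps* and *Kif22-ps* had at most 1 count in a library.

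Spindle-associated proteins showed the same order. *Nusap1*, which bundles spindle microtubules, was at 73.5, 18.3, 19.8 and 70.5 CPM. It shares 172 exonic bases with *Oip5* on the opposite strand, at 17, 2, 9 and 11 counts, which follow its order. *Hmmr*, the RHAMM protein of spindle poles, was at 31.1, 6.19, 5.36 and 28.5 CPM, 5.03-fold (3.86 to 6.63) within WT and 5.33-fold (4.24 to 6.75) within cKO. *Stmn1*, stathmin, which destabilises microtubules and is inhibited by phosphorylation in mitosis, was at 169, 49.3, 54.3 and 172 CPM, 3.43-fold (3.12 to 3.79) and 3.16-fold (2.93 to 3.41). For *Nusap1* and *Stmn1* the levels of WT 1 and cKO 2 differed by less than 0.1 on the log2 scale (-0.06 and 0.02). In the central spindle, *Racgap1*, the MgcRacGAP subunit of centralspindlin, was at 95.1, 26.6, 25.1 and 75.05 CPM. *Kif23*, its kinesin partner Mklp1, was at 37.5, 5.999, 8.18 and 25.6 CPM, 6.25-fold (4.803 to 8.25) within WT and 3.12-fold (2.56 to 3.82) within cKO. *Prc1*, which bundles the antiparallel microtubules of the midzone, was at 45.02, 14.4, 13.7 and 36.1 CPM. The subunits of centralspindlin differed in the gap within WT, 3.57-fold (3.14 to 4.08) for *Racgap1*, below the interval of *Kif23*. *Kif20a*, the kinesin Mklp2 that brings the passenger complex to the midzone, was at 65.1, 25.96, 29.97 and 68.1 CPM. *Ect2*, the exchange factor that activates RhoA for cytokinesis, was at 37.98, 10.7, 13.3 and 30.2 CPM. *Anln*, anillin, a scaffold of the contractile ring, was at 8.27, 2.53, 2.48 and 6.28 CPM. The 6 cytokinesis genes were all over 2-fold higher in WT 1 and cKO 2 than in the other library of the genotype. The exons of *Kif20a* share 1259 bases with *Cdc23* on the opposite strand, whose 2372, 2495, 4592 and 2918 counts exceeded those of *Kif20a*, 795, 277, 520 and 933, and did not follow its order.

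Of the remaining genes, *Top2a*, topoisomerase II alpha, which untangles sister chromatids, was at 336, 82.6, 73.9 and 263 CPM, 4.07-fold (3.78 to 4.38) within WT and 3.56-fold (3.34 to 3.80) within cKO. *Mki67*, whose protein Ki-67 coats mitotic chromosomes and is the usual marker of cycling cells, was at 90.5, 28.7, 34.7 and 81.98 CPM, 3.16-fold (2.78 to 3.59) and 2.36-fold (2.14 to 2.61). WT 1 was above cKO 2 for both, and both lay far above the other libraries. Per kilobase of exon (GENCODE vM1), the highest mean levels over the libraries were those of *Stmn1* (57.8 CPM per kb), *Cenpa* (43.7), *Ccnb2* (29.3), *Kif22* (22.6), *Cdc20* (21.8) and *Top2a* (20.8). The lowest mean levels per kilobase were those of *Anln* (0.902), *Cdc25c* (1.71) and *Cenpf* (1.78). Gene order on this scale is approximate, since the annotation used for the counting was not given in the sources used here.

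The comparison of the genotypes, which asks what loss of TfR1 does to the RNA of Treg cells, called 0 of the 40 genes. With edgeR's quasi-likelihood test and Benjamini-Hochberg adjustment over all 12536 genes, 0 of 40 genes had an adjusted p under 0.05 with a log2 change of 0.5 or more in either direction, beside 0.0% of all genes tested. DESeq2 called 0 of 40 as well, beside 0.435% of the 10105 genes to which it gave an adjusted p. At an unadjusted p under 0.05 with the same change, 0 of 40 genes passed, beside 4.08% of all genes tested (1.6% higher and 2.48% lower in cKO). The lowest unadjusted edgeR p of the 40 genes was 0.439 and the lowest adjusted p 0.955. The log2 fold changes, cKO over WT, had a median of -0.03 beside 0.0085 over all genes tested, and 19 were above and 21 below 0. They ran from -0.62 (*Cdc25c*) to 0.52 (*Spc25*). For 0 of 40 genes did the WT and cKO libraries not overlap, against 34.9% of all genes tested. This restates the order of the libraries. With WT 1 and cKO 2 above WT 2 and cKO 1 in all 40 genes, the genotypes must overlap.

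This comparison was less precise for the 40 genes than for most others. The standard error of the log2 fold change had a median of 0.75 over the 40 genes, with a range of 0.30 (*Mad2l1*) to 1.27 (*Ube2c*), beside a median of 0.27 over all genes tested. For the gene of each role with the highest mean CPM, the log2 fold changes with their standard errors were -0.31 ± 0.83 for *Top2a*, 0.04 ± 0.75 for *Stmn1*, -0.14 ± 0.34 for *Cenpa*, -0.29 ± 0.74 for *Racgap1* and -0.52 ± 1.04 for *Kif11*. They were 0.21 ± 0.53 for *Cdca8*, 0.05 ± 0.73 for *Tpx2*, -0.13 ± 0.90 for *Ccnb1*, 0.0072 ± 0.59 for *Cdc20* and 0.10 ± 0.68 for *Bub1b*, with adjusted p of 0.977 to 0.999 from edgeR over these 10 genes. Each of the 10 changes was smaller than its standard error, which restates the result of the test. These values do not show that the genotypes are alike. The median over the 40 genes turned with the library left out, to 1.18 without WT 1 and 0.57 without cKO 1, and to -0.65 without WT 2 and -1.11 without cKO 2. Without cKO 2 the log2 fold change was below 0 for 40 of 40 genes and without WT 1 it was above 0 for 40 of 40, with 0 genes called in each of these fits, which assume that the lone library of a genotype varies as the other genotype does.

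**Figure D3:**
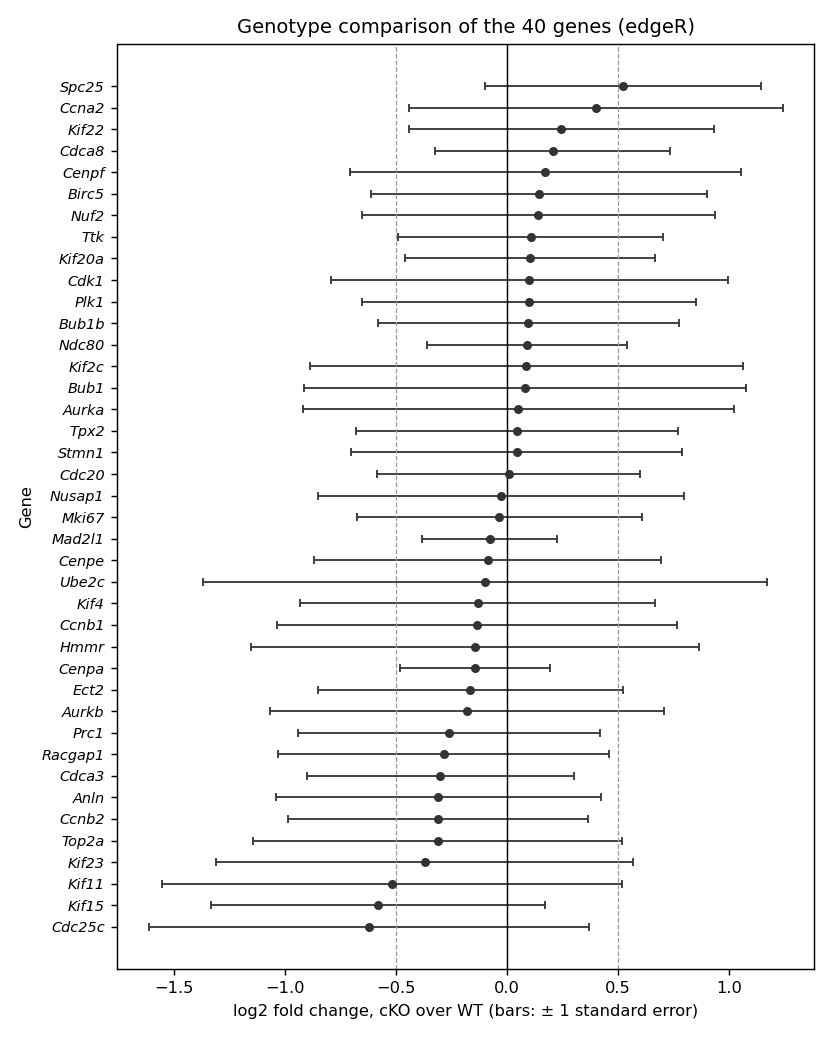
Log2 fold change of each of the 40 genes, cKO over WT, from edgeR with 2 libraries a genotype. Points are fitted values, bars are ± 1 standard error derived from the test's F statistic, and dashed lines mark the minimum change of 0.5. The points run from -0.62 for *Cdc25c* to 0.52 for *Spc25*, and every bar reaches across 0.

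The order of the libraries extended to other genes of the cell cycle, with smaller ratios. Of 62 other G2/M-phase genes, 33 (53.2%) were over 2-fold higher in WT 1 than in WT 2 and in cKO 2 than in cKO 1, with median log2 ratios of 1.32 and 1.14. Over all genes tested, 3.88% were over 2-fold higher in both. The genes of this list with the highest mean CPM were under 2-fold in both genotypes. *Smc4*, a condensin subunit, was at 1103, 1302, 1457 and 1195 CPM. *H2az1*, a histone variant gene, was at 759.9, 530.1, 611 and 813 CPM. *Zwint*, a kinetochore scaffold, was at 112, 117, 101 and 113 CPM. Of these, *H2az1* had the order of the 40 genes with a small gap, and *Smc4* had the opposite order. Of 40 genes of S phase and replication, 7 (17.5%) were over 2-fold higher in both genotypes, with median log2 ratios of 1.04 and 0.78. In both genotypes 37 were higher, against 32.9% of all genes tested. The replicative helicase subunits *Mcm6*, *Mcm2* and *Mcm4*, the genes of this list with the highest mean CPM, had log2 ratios below the medians of the 40 genes in both genotypes. *Mcm6* was at 491, 230.2, 319 and 475 CPM.

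Of 23 cell cycle transcription factors, 3 were over 2-fold higher in both genotypes, beside 3.88% of all genes tested. They were *Foxm1*, *E2f7* and *E2f8*, of which the E2f genes are named for their values. *Foxm1*, the factor that drives G2/M genes, was at 6.63, 1.31, 2.997 and 6.94 CPM. *Mybl2*, B-Myb, which recruits FoxM1 to CHR promoters, was at 2.95, 1.78, 2.82 and 5.18 CPM. *E2f8*, an atypical E2F repressor of S and G2 phase, was at 16.9, 5.06, 2.31 and 14.7 CPM. All 3 had the order of the mitotic genes within each genotype, with *Mybl2* under 2-fold. Subunits of the APC/C and cohesin did not share it. Of 26 core subunits of the APC/C, cohesin and the checkpoint, 0 were over 2-fold higher in both genotypes, with median log2 ratios of -0.01 and -0.09. The APC/C subunit *Anapc5* was at 489, 524, 579.9 and 554 CPM, the cohesin subunit *Rad21* at 385, 364, 383 and 372 CPM and the checkpoint protein *Bub3* at 334, 335, 361 and 380.3 CPM. By genotype, 0 genes of these 4 lists were called by edgeR with adjusted p, and at an unadjusted p under 0.05 with a change of at least 0.5 they held 1, *Cdc16* of the APC/C, beside 4.08% of all genes tested. *Cdc16*, named for its value, was at 19.97, 17.3, 27.3 and 31.6 CPM.

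**Figure D4:**
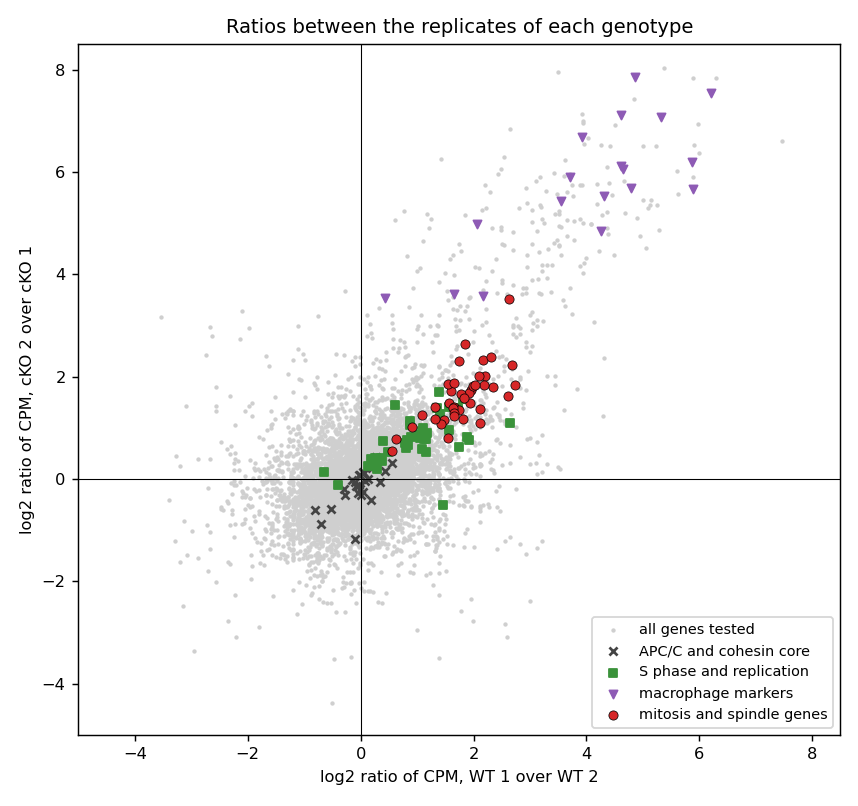
Log2 ratio of CPM between the libraries of each genotype, WT 1 over WT 2 on the x axis and cKO 2 over cKO 1 on the y axis, with 1 point per gene. The 40 mitosis and spindle genes (red) lie in the upper right quadrant around their medians of 1.80 and 1.60, the S phase genes (green squares) nearer to 0, the APC/C and cohesin core (crosses) about 0, and the macrophage markers (purple) further out.

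Markers of macrophages moved with the mitotic genes. Of 20 macrophage markers, 18 were tested, and 17 of the 18 were over 2-fold higher in WT 1 than in WT 2 and in cKO 2 than in cKO 1. Over all genes tested the share was 3.88%. A marker can pass the filter on low counts through WT 1 and cKO 2 alone, so the filter partly sets this count. The sum of the 20 markers was 12.1 times as high in WT 1 as in WT 2 and 49.8 times as high in cKO 2 as in cKO 1. *Csf1r*, the receptor for the macrophage growth factor M-CSF, was at 124, 1.97, 4.96 and 371 CPM. The sizes did not run in parallel. Macrophage markers were 3.002 times as high in cKO 2 as in WT 1, whereas the 40 mitotic genes were 0.926 times as high. Of the 20 markers, 1, 3, 1 and 0 were at 0 in the 4 libraries. Their part in the levels of the mitotic genes was not tested.

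Of the other marker lists, those of plasma cells and NK cells had this order in their sums, with smaller gaps. Erythroid markers, of which 7 of 10 were found, summed to 19.7, 115, 45.3 and 295 CPM, lowest in WT 1 and highest in cKO 2. B cell markers, 9 of 10 found, summed to 1295, 1578, 1276 and 1108 CPM, nearly all from *Ighm* at 1269.9, 1535, 1238 and 1077 CPM. Dendritic cell markers summed to 55.3, 58.2, 57.2 and 58.3 CPM, plasma cell markers to 129, 77.7, 88.4 and 118 CPM, NK cell markers to 18.9, 18.5, 17.8 and 22.7 CPM, CD8 T cell markers to 11.1, 11.8, 12.6 and 12.4 CPM and platelet markers to 1.88, 3.37, 2.65 and 2.19 CPM. In the plasma cell list, *Xbp1* (59.8, 39.1, 57.97 and 76.5 CPM) and *Irf4* (61.4, 29.9, 21.3 and 25.2 CPM), genes that Treg cells also express, made up most of the sum. Scaling by the T cell and Treg markers in place of TMM left 37 of 40 mitotic genes over 2-fold higher in both genotypes.

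**Figure D5:**
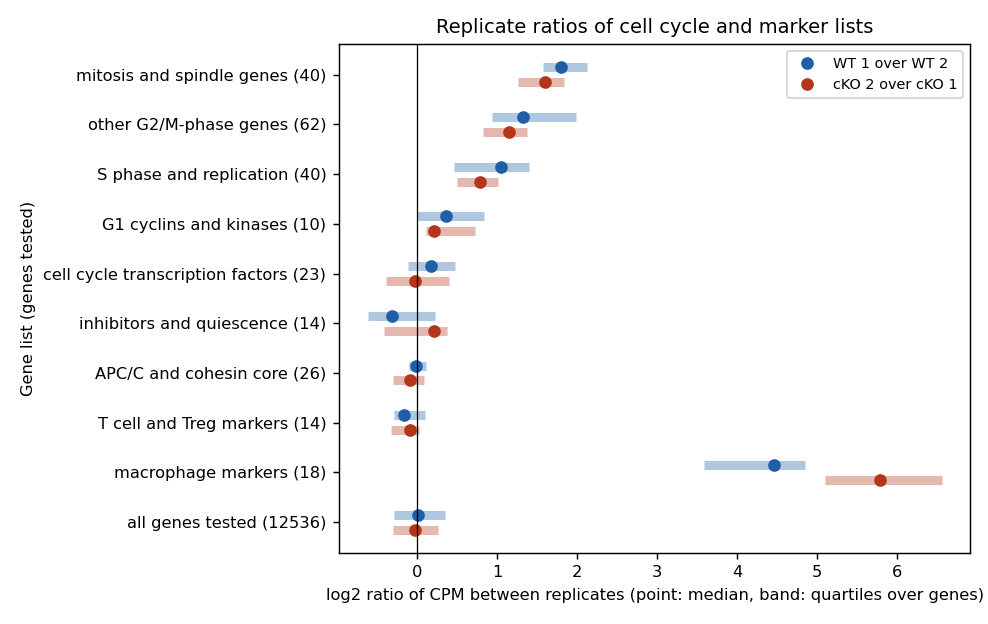
Median (point) and quartiles (band) over genes of the log2 ratio of CPM between the libraries of each genotype, WT 1 over WT 2 in blue and cKO 2 over cKO 1 in red, for gene lists with the number of genes tested in parentheses. The medians fall from 1.80 and 1.60 for the mitosis and spindle genes through 1.04 and 0.78 for S phase to about 0 for the APC/C and cohesin core, and are highest, 4.46 and 5.79, for macrophage markers.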

How the data were processed

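RNA of 4 sorted Treg cell libraries was counted per gene. The authors deposited raw read counts for each library and Ensembl gene. The submitters' processing notes name Trim Galore 0.6.7, STAR 2.7.9a, featureCounts and mm10, whereas the study's methods name mm9. The sources used here do not give the strand setting, the gene annotation or the handling of multiply mapped reads. Identifiers were matched to symbols for 32799 of 47729 rows, and unmatched rows held 0.907% of counts. Counts of genes kept by filterByExpr were normalized with TMM factors and compared in edgeR 4.0.16 (quasi-likelihood, genotype as the only term) in R 4.3.3. Calls required a Benjamini-Hochberg adjusted p under 0.05 and a log2 change of 0.5 or more in either direction. log2 ratios used a prior count of 2, and counting intervals of folds are exact binomial at 95%. Totals of 10841939 to 17278448 counts leave the spread between replicates as the main limit. Alternatives were DESeq2 1.42.0, other scalings, count filters, thresholds, a replicate block and the omission of each library. The fits were tested on simulated counts. All 40 members, the gene of highest mean CPM in each role, the 3 most highly counted genes of other lists, *Tfrc*, *Foxp3*, *Csf1r*, *Foxm1* and *Mybl2* were the genes to be named, not all of which are printed. The members and lists were chosen with earlier results of these data known.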

Additional observations from a re-analysis of the deposited data

How the results depend on the processing

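The count of 0 mitotic genes called between genotypes was the same under every alternative in which calls were counted. Calls were not counted with scaling by T cell and Treg markers. Over all genes tested, edgeR called 0, DESeq2 called 44 (7 higher and 37 lower in cKO), edgeR without a count filter 262 (167 and 95), and the unadjusted rule 511 (200 and 311). The numbers of the replicates did not pair the libraries (the deviations of same-numbered libraries correlated at -0.609), and with a replicate block 0 genes were called. With WT 1 paired to cKO 2 and WT 2 to cKO 1, a pairing chosen after seeing the data, edgeR called 360 genes (150 higher and 210 lower), 0 of them mitotic. Leaving out 1 library at a time called 0 genes in each fit, and the median log2 fold change of the mitotic genes, -0.03, then ran from -1.11 to 1.18. The direction of single genes turned with the library left out, with log2 fold changes of -1.51 to 1.06 for *Top2a*, -1.02 to 1.22 for *Stmn1*, -0.59 to 0.23 for *Cenpa*, -1.29 to 0.93 for *Racgap1*, -2.03 to 1.42 for *Kif11*, -0.56 to 0.88 for *Cdca8*, -1.06 to 1.09 for *Tpx2*, -1.47 to 1.39 for *Ccnb1*, -0.69 to 0.95 for *Cdc20* and -0.78 to 1.18 for *Bub1b*. Scaling by T cell and Treg markers moved the median replicate ratio from 1.80 to 1.99 within WT and from 1.60 to 1.76 within cKO, and that of all genes to 0.192 and 0.128, and with DESeq2 size factors the cKO value was 1.63. The median ratio of cKO 2 to WT 1, -0.08, became -0.034 with T cell markers, -0.038 with total counts and -0.054 with DESeq2 size factors, and that of cKO 1 to WT 2 went from 0.024 to 0.097 with T cell markers. The count of genes over 2-fold in both genotypes was 36 or 37 under 3 other scalings and 36 with a prior count of 0.5, all chosen after seeing the data.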

Other observations

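Upstream of mitosis, genes of G1 had smaller median ratios between the libraries than the mitotic genes, though most had the same direction. Of 10 G1 cyclins and kinases, 1 was over 2-fold higher in WT 1 than in WT 2 and in cKO 2 than in cKO 1, beside 3.88% of all genes tested. The median log2 ratios of the list were 0.35 and 0.21. Of the 10 genes, 7 (70.0%) were higher in both of these comparisons, against 32.9% of all genes tested, and 2 were lower in both. The largest log2 ratios within WT and within cKO were those of *Skp2* (1.02 and 1.98), *Ccnd1* (0.99 and 2.94) and *Ccne2* (0.93 and 0.84), named for their values. *Ccnd1* had few counts, 20, 8, 10 and 74. *Ccnd2*, a D-type cyclin, was at 946, 971, 1086 and 940.2 CPM, *Ccnd3* at 239.8, 164, 203 and 264 CPM and *Cdk4*, their kinase partner, at 217, 217, 201 and 216 CPM. *Ccnd2* and *Cdk4* were near level over the 4 libraries.

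Of 18 cell cycle inhibitors and quiescence genes, 14 were tested, and 0 were over 2-fold higher in both genotypes, beside 3.88% of all genes tested. The anti-proliferative genes *Btg1* and *Btg2* were at 617, 945, 831 and 613 CPM and 567, 711, 444 and 556 CPM. *Btg1* was lower in WT 1 and cKO 2, the libraries with high mitotic levels, whereas *Btg2* was higher in cKO 2 than in cKO 1. Of the 14 genes tested, 6 (42.9%) were higher in WT 1 than in WT 2 and in cKO 2 than in cKO 1, against 32.9% of all genes tested. Lower in both were 5 of the 14, against 4496 of the 12536 genes tested. Between genotypes, 0 genes of both lists were called by edgeR with adjusted p. *Gadd45b*, a stress-induced growth arrest gene, had the lowest unadjusted p of them, at 61.6, 36.5, 17.6 and 24.9 CPM. Its log2 fold change was -1.21 ± 0.33 (unadjusted p = 0.0138, adjusted p = 0.911 from edgeR), where 2.48% of all genes tested were lower by the unadjusted rule. Both cKO libraries were below both WT libraries for *Gadd45b*, as they were for 2369 of the 12536 genes tested. The G1 cyclin *Ccne1* was at 2.701, 2.72, 5.01 and 5.48 CPM, with 0.95 ± 0.35 and an adjusted edgeR p of 0.911. Both genes were chosen after their values were seen, and both fail the adjustment.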
